A study of Cucumis melo with 4 samples.

Results

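The genes described here are the melon genes annotated to defense against pathogens that had at least 1 binding peak of CmNOR. This protein of melon (Cucumis melo) belongs to the NAC transcription factors, a plant family. Members were chosen from the Gene Ontology (GO) names that the authors' peak list gives for each gene. A gene was taken if a name contained "defense response", "immune", "response to bacterium" or "response to fungus", and left out if any name contained abscisic, auxin, jasmon or the word ethylene. The names held 53 such genes, the hormone words removed 4, and 49 remained. The list assigns peaks to 4510 genes in all, 3406 of them with a GO term. The 49 defense genes held 66 of the 5493 peaks. Apart from the need for at least 1 peak, no measured value entered this choice. The genes are given by their identifiers, since the list pairs these with GO names only and 0 of the 49 matched the RefSeq gene table.

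Peaks came from DAP-seq (DNA affinity purification sequencing). This assay incubates a tagged protein from E. coli with naked genomic DNA fragments and sequences those it retains. In 2 libraries the protein was MBP-His-CmNOR, that is CmNOR joined to a His tag and to maltose-binding protein (MBP). In the other 2, the negative controls, it was MBP-His without CmNOR. All 4 used melon genomic DNA. The source label names CmNOR for all 4 libraries, and the tagged protein label is what separates the groups. The sources used here give neither the melon line nor the tissue. DNA in this assay has no chromatin, so a peak is a place where the protein bound in vitro. The list is a single combined one without a count, score or column per library, so depth is unknown, the control was not compared with CmNOR, and no value below has a replicate error. Intervals are 95% exact Clopper-Pearson intervals and cover counting error only.

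Plants detect pathogens at the cell surface and inside the cell. The intracellular receptors are mostly nucleotide-binding leucine-rich repeat proteins, whose nucleotide-binding domain holds ADP at rest, and their genes often lie in tandem clusters. Downstream, salicylic acid carries the signal to local cell death and to systemic acquired resistance, and secreted or cytosolic pathogenesis-related proteins act against the invader. NAC factors as a family act in senescence, ripening and stress responses.

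Defense genes had CmNOR peaks close upstream about as often as the other genes of the list. A peak centre lay within 2 kb upstream of the gene start in 11 of the 49 genes, or 22.4% (11.8 to 36.6), against 17.8% of all 3406 GO-annotated genes. With a window of 1 kb the share was 10.2% (5 of 49) against 9.72%, and with 3 kb it was 28.6% (14 of 49) against 24.3%. The authors' promoter class takes in every peak within 3 kb of the start on either side. It held a peak of 21 of the 49, or 42.9% (28.8 to 57.8), against 49.0% of GO-annotated genes. For protein kinase genes, another large signalling class, the shares were 19.3% (32 of 166) and 48.8% (81 of 166). The values for GO-annotated genes and for kinases lie inside the intervals of the defense genes, so no difference in either share was detectable with 49 genes. Defense genes were short, with a median length of 1701 bp against 3336 bp. Among the 1396 GO-annotated genes within the length quartiles of the defense genes, the shares were 19.6% and 52.2%.

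By location, 36 of the 66 peaks were distal intergenic, or 54.5% (41.8 to 66.9), against 42.6% of the 4107 peaks of GO-annotated genes. The promoter class held 23 peaks, or 34.8% (23.5 to 47.6), against 42.7%. Exons held 4 peaks (6.06%), introns 2 (3.03%) and the downstream flank 1 (1.52%). Among peaks of GO-annotated genes these shares were 4.92%, 5.28% and 3.55%. Peaks in 3' or 5' UTRs numbered 0 of 66, which allows a share of up to 5.44% for each by the exact interval. The shares among peaks of GO-annotated genes were 0.852% and 0.0730%, so the 0 does not set defense genes apart. Of the 36 distal peaks, 13 belonged to 2 genes, MELO3C002872.2 with 8 peaks and MELO3C023360.2 with 5. Intervals for shares of peaks treat peaks of the same gene as independent, so they understate the uncertainty. Without these 2 genes, distal and promoter peaks numbered 23 each of 53, or 43.4% (29.8 to 57.7).

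**Figure D1:**
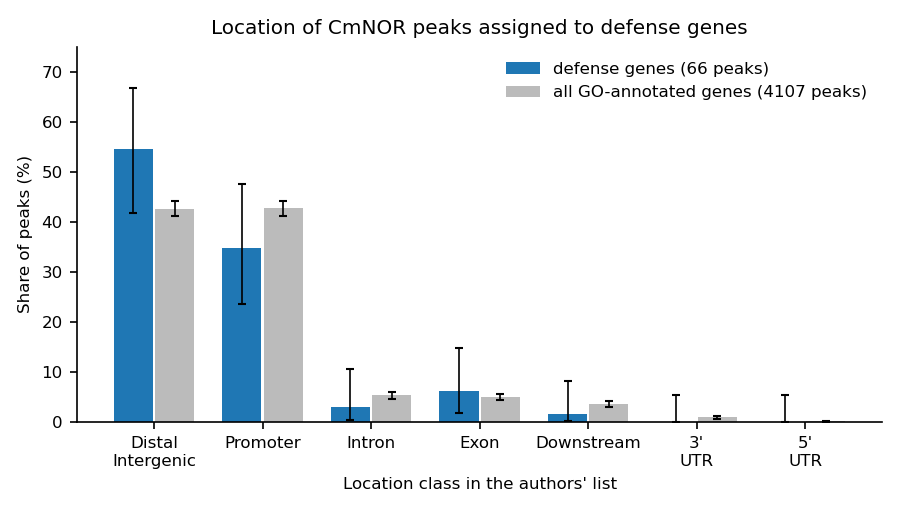
Share of peaks (%) in each location class of the authors' list, for the 66 peaks of defense genes (blue) and the 4107 peaks of all GO-annotated genes (grey), with 95% exact intervals. The intervals treat peaks of the same gene as independent. The distal bar stands at 54.5% against 42.6% and the promoter bar at 34.8% against 42.7%, and the grey values lie within the blue intervals.

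Within the promoter class, 14 of the 23 peaks had their centre upstream of the gene, 8 inside it and 1 past its end. Across GO-annotated genes the upstream share was 49.8%, which lies within the interval of the defense genes (60.9%, 38.5 to 80.3). A peak covered the gene start itself in 3 cases, or 4.55% of the 66 peaks, against 3.71% of all peaks. The median distance from a gene start to its nearest peak edge was 4197 bp in defense genes and 3082 bp in GO-annotated genes. Peaks of defense genes were 302 to 1155 bp wide with a median of 435.5 bp, against 421 bp over the whole list.

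The 49 genes were sorted by their other GO names into 8 groups. Over all GO-annotated genes, 49.0% had a promoter-class peak. Genes with the ADP binding term, which is typical of the intracellular receptors, had a promoter-class peak in 4 of 6 cases. The 10 genes annotated only to defense and to biotic stimulus had 2 with a promoter-class peak. The 2 genes for rRNA N-glycosylases and the 3 for ubiquitin transfer had 0, and the 5 genes of salicylic acid and acquired resistance had 3. Distal intergenic peaks alone were found at 23 of the 49 genes, or 46.9% (32.5 to 61.7), against 36.3% of GO-annotated genes and 34.9% of protein kinase genes (58 of 166). These groups hold 2 to 17 genes and the differences among them were not tested.

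**Figure D2:**
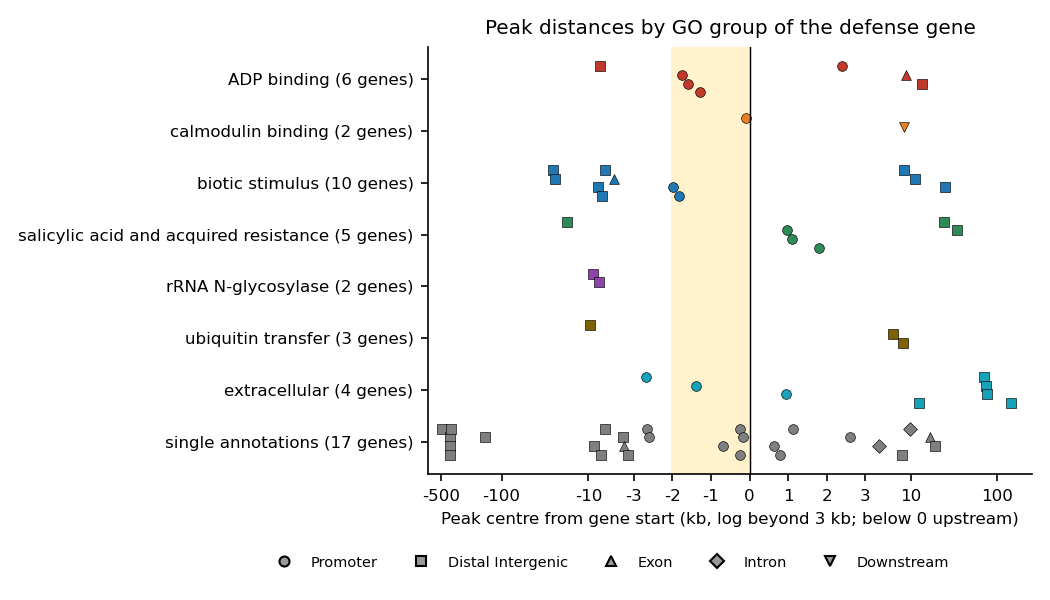
Distance of each peak centre from its gene start (kb, linear within 3 kb and logarithmic beyond, below 0 upstream) for the 66 peaks, by GO group. The shaded band is the 2 kb upstream, which holds peaks of 3 ADP binding genes and of 2 biotic stimulus genes, while the rRNA N-glycosylase and ubiquitin transfer genes have none within 3 kb of their start.

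Upstream peaks were present at 3 of the 6 ADP binding genes, against 17.8% of GO-annotated genes. With 6 genes the interval is wide (11.8 to 88.2) and includes that share. MELO3C004321.2, a gene of 11096 bp on chromosome 5, had a peak at 26445259 to 26445731, 1052 bp upstream, and a second peak in exon 4 of 6. MELO3C022143.2 on chromosome 9, also annotated to signal transduction, had its peak at 795198 to 795519, 1436 bp upstream. MELO3C004317.2 on chromosome 5 had one at 26349614 to 26350213, 1460 bp upstream. MELO3C005504.2 on chromosome 9, which carries the plasma membrane term as well, had its peak inside the gene, 2195 bp from the start. The other 2 had distal peaks, 13395 bp past the start of MELO3C004318.2 and 7226 bp upstream of MELO3C027962.2 on the sequence named chr0.

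Another 11 genes of the list carried the ADP binding term without a defense term and so are not members. Among them, 1 had a peak centre within 2 kb upstream and 6 had a promoter-class peak, against 17.8% and 49.0% of GO-annotated genes. The shares were 9.09% (0.230 to 41.3) for upstream peaks against 50.0% (11.8 to 88.2) in the 6 members, and these intervals overlap. On chromosome 9, 3 of them lay close to MELO3C022143.2, with starts 28700 bp (MELO3C022145.2), 70106 bp (MELO3C033531.2) and 96212 bp (MELO3C022152.2) from its own. The peak of MELO3C022145.2 began 40 bp inside that gene. A further ADP binding gene, MELO3C030973.2, lay 102102 bp from the ubiquitin transfer gene MELO3C009863.2 on chromosome 4. The defense term therefore covers only part of the ADP binding genes in the list, 6 of 17.

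The term for response to biotic stimulus was carried by 12 genes of the whole list, and all 12 are members. In 10 of them the defense and biotic stimulus terms are the only ones. Their median distance from start to nearest peak was 7132.5 bp, with a range of 1597 to 25468 bp. Distal peaks only were found at 7 of the 10, against 36.3% of GO-annotated genes. The count was 23 for all 49 defense genes, which include these 7. Another defense gene lies within 200 kb of 6 of the 10, so they are not all separate cases. The 10 genes were short, from 201 to 1831 bp. The nearest peaks belonged to 2 neighbours on chromosome 6, MELO3C031739.2, with a peak at 15080705 to 15081179, 1597 bp upstream, and MELO3C020273.2, with one at 15134308 to 15134631, 1829 bp upstream. The centre of the latter peak, 1990.5 bp from the start, was the last inside the 2 kb limit. The first upstream centre outside it, at 2609.5 bp, belonged to MELO3C019981.2.

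The other 8 biotic stimulus genes had no peak within 3 kb of their start. MELO3C018733.2 on chromosome 1 had its peak 4687 bp upstream, inside exon 9 of 24 of the neighbouring gene MELO3C018734.2, and at 717 bp this peak was among the widest of the 66. The nearest edges lay 6295 bp upstream of MELO3C015011.2, 6815 bp upstream of MELO3C016128.2, 7450 bp upstream of MELO3C023694.2 and 8182 bp past the start of MELO3C018325.2, a gene model of only 201 bp on chromosome 10. For the remaining 3 genes the distance exceeded 10 kb, at 11001 bp past the start of MELO3C015016.2, 24063 bp upstream of MELO3C020270.2 and 25468 bp upstream of MELO3C015007.2. That last value is the farthest nearest-peak distance of any of the 49 genes.

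The other 2 biotic stimulus genes also carry terms for calmodulin binding and for the membrane, and they differed from each other. A peak at 6578168 to 6578491 covered the start of MELO3C007979.2 on chromosome 8. In MELO3C005044.2 on chromosome 12 the peak was beyond the end of the gene, 8309 bp from the start, in the authors' downstream class. Calmodulin is the calcium sensor through which an early calcium signal of an attacked cell is read.

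In the 5 genes of salicylic acid and acquired resistance the peaks lay inside the gene in 3 and distally in 2. An upstream peak was present at 0 of 5, against 17.8% of GO-annotated genes, a share that comes to fewer than 1 gene in 5. The genes MELO3C021922.2 on chromosome 11 and MELO3C002777.2 on chromosome 12 carry the same GO terms, which include methyl salicylate esterase activity, the step that releases salicylic acid from its methyl ester. In each the peak lay inside the gene. In the first, of 4551 bp, the nearer edge was 847 bp from the start (5116011 to 5116531) and the centre 1107 bp. In the second, of 1978 bp, these were 580 bp (20799991 to 20800787) and 978 bp, so that peak lay in mid-gene. The peak of MELO3C002777.2 was 797 bp wide, the second widest of the 66. MELO3C031562.2 on chromosome 5, annotated to regulation of salicylic acid signalling, also had its peak inside, 1594 bp from the start. MELO3C031111.2, a gene with terms for negative regulation of systemic acquired resistance and the Smc5-Smc6 complex, had 2 peaks 24022 and 34044 bp past its start. MELO3C025217.2, annotated to salicylic acid metabolism and the hypersensitive response, a local cell death, had a peak 17475 bp upstream.

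Of the 4 genes with an extracellular term, 3 had a promoter-class peak, against 49.0% of GO-annotated genes. MELO3C006673.2 on chromosome 6, annotated as extracellular and defense, had a peak at 4956499 to 4957094, 1085 bp upstream. MELO3C023363.2 on chromosome 1, with the same 2 terms, had one 2411 bp upstream. The third such gene, MELO3C023360.2, had 5 peaks that ran from 12270 to 143487 bp past its start. The gene is 1105 bp long and all 5 peaks are distal intergenic, so the count is one of peaks in the gap after it. MELO3C035640.2 on chromosome 12 is annotated to the extracellular space, meristem identity and innate immunity, and its peak lay inside the gene, 701 bp from the start. The 2 genes for rRNA N-glycosylases, enzymes that inactivate ribosomes, had peaks 7295 bp upstream (MELO3C025120.2) and 8543 bp upstream (MELO3C029150.2).

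For the 3 genes of ubiquitin transfer, which marks proteins for breakdown, the peaks were distal, as were all those of 36.3% of GO-annotated genes, and 3 genes are too few to set against that share. The peaks lay 6066 bp past the start of MELO3C009863.2, annotated to the hypersensitive response and to negative regulation of defense, 8060 bp past that of MELO3C013883.2 and 9323 bp upstream of MELO3C016766.2.

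The remaining 17 genes carry none of the terms that define these groups. An upstream peak was present at 4 of them, against 17.8% of GO-annotated genes, and so few genes do not separate these shares. A peak at 5099877 to 5100546 on chromosome 11 covered the start of MELO3C021923.2, annotated to defense against fungus, pollen tube guidance and binding of the mediator complex. On chromosome 8 a peak at 31180467 to 31181165 covered the start of MELO3C014211.2, annotated to bacterium, water deprivation and high light. MELO3C034561.2 on chromosome 11, a gene of 738 bp for a membrane protein, had a peak 90 bp upstream at 342597 to 342930 and a second across its far end, 615 bp from the start. MELO3C018636.2 on chromosome 1, a cysteine-type endopeptidase gene with a term for programmed cell death, had its peak at 1659106 to 1659624, 418 bp upstream.

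Promoter-class peaks outside the 2 kb upstream were found in 4 more of these 17 genes. In all, 8 of the 17 had a promoter-class peak, against 49.0% of GO-annotated genes. MELO3C019981.2 on chromosome 3 has the same GO terms as MELO3C014211.2 and had 2 peaks, 471 bp inside the gene and 2442 bp upstream. MELO3C004409.2 on chromosome 5, annotated to defense against bacterium and to the response to light, had a peak 2406 bp upstream. The peak of MELO3C009443.2, annotated to microtubule binding and to positive regulation of defense against bacterium, lay inside the gene at 897 bp. MELO3C015872.2 on chromosome 1, annotated to oomycetes and to hydrogen peroxide synthesis, held the widest of the 66 peaks, 1155 bp at 31302532 to 31303686, which began 2032 bp inside the gene.

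The last 9 genes had peaks beyond 3 kb. MELO3C009985.2 on chromosome 4, a gene of 23553 bp for cuticle hydrocarbon synthesis, which forms the waxy surface of the plant, had a peak in intron 13 of 24 and another in exon 20 of 25. MELO3C023516.2, annotated to defense against fungus, had its peak in intron 6 of 8. The peak assigned to MELO3C016411.2, annotated to DNA methylation and oomycetes, lay in exon 12 of 19 of another gene, MELO3C016409.2, 3676 bp upstream. Distal peaks lay 3337 bp upstream of the DNA-binding gene MELO3C019321.2, 3744 bp upstream of MELO3C015674.2, 6350 bp upstream of MELO3C018229.2, 7705 bp past the start of MELO3C020492.2 and 19048 bp past that of the protein kinase gene MELO3C030603.2. MELO3C002872.2 on chromosome 12, annotated only to defense against bacterium, had 8 peaks upstream, the nearest at 6961 bp and the farthest at 486862 bp. Since the list assigns each intergenic peak to a gene start however far away, the count of 8 is one of peaks in the gap before this gene. More than 1 peak was found at 8 of the 49 genes, or 16.3% (7.32 to 29.7), against 14.8% of GO-annotated genes.

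By the pathogen or process named in the GO terms, 7 genes were annotated to bacterium, and an upstream peak was present at 1 of them, against 17.8% of GO-annotated genes. The counts were 3 of 6 for ADP binding, 1 of 4 for fungus, 0 of 2 for oomycetes, 0 of 5 for innate immunity or systemic acquired resistance, 1 of 6 for hydrolases, 0 of 2 for kinases, 1 of 2 for signal transduction, 2 of 9 for membrane terms and 3 of 12 for biotic stimulus. A term for viruses or chitin was carried by 0 of the 49 genes. The 7 genes outside all these lists had 1. A gene can stand in several of these lists, and no difference between a list and all genes was tested.

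Another defense gene started within 200 kb in 15 of the 49, or 30.6% (18.3 to 45.4), whereas 5.00% of the 3357 other GO-annotated genes had a defense gene within that distance (168 genes, 4.29 to 5.80). No test was run, because neighbouring genes are not independent. The intervals treat them as if they were, so they understate the uncertainty. Only genes with a peak are in the list, so a genomic cluster is seen in part, and the layout of melon defense genes without a peak was not analysed here. The median distance to the nearest defense gene on the same chromosome was 1596 kb for defense genes and 3096 kb for other GO-annotated genes.

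**Figure D3:**
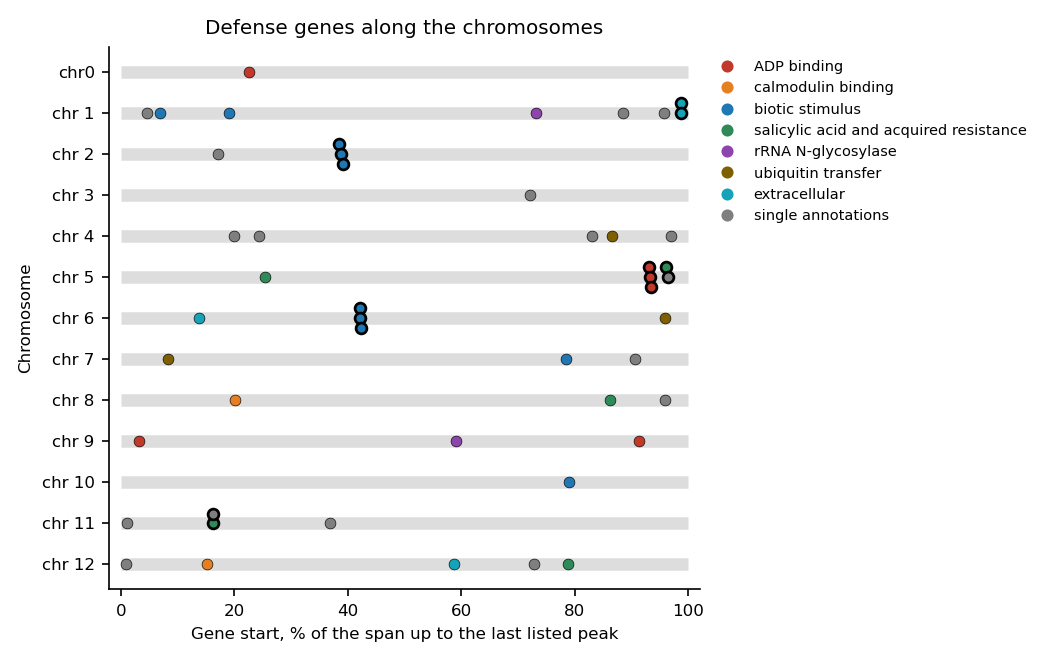
Start of each of the 49 defense genes as a percentage of its chromosome's span up to the last listed peak, coloured by GO group, with thick outlines for the 15 genes in runs, which are offset vertically to show each gene. Runs of 3 genes stand on chromosomes 2, 5 and 6 and pairs on chromosomes 1, 5 and 11, and the genes in runs of 3 share a colour.

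The 15 genes formed 6 runs, 3 of 3 genes and 3 of 2 genes. In 4 of the 6, with 11 genes, all members carried the same GO terms. Identical GO names were carried by 10 of the 12 pairs of defense genes within 200 kb, and by 11 of the 94 pairs on the same chromosome at any distance. Among protein kinase genes, also chosen by a GO name, the counts were 8 of 24 and 146 of 1213. Over all GO-annotated genes, identical names were carried by 149 of 6988 pairs within 200 kb, or 2.13%. The choice of members by GO names bears on these counts, and pairs of a run share genes, so they are a description only. Counting each of these 4 runs as a single gene left 4 of 42 genes with a defense neighbour, or 9.52% (2.66 to 22.6). The share was 5.14% of the other 3364 GO-annotated genes, which then include the defense genes taken out of the runs.

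The run on chromosome 5 holds the ADP binding genes MELO3C004317.2, MELO3C004318.2 and MELO3C004321.2, whose starts lie 26.0 and 69.1 kb apart and which are all on the plus strand. It has 4 peaks, of which 2 lie 1052 and 1460 bp upstream of the outer genes. The run on chromosome 6 holds the biotic stimulus genes MELO3C031739.2, MELO3C020273.2 and MELO3C020270.2 within 94.3 kb, with 1 peak each. The first 2, both on the plus strand, have peaks 1597 and 1829 bp upstream, while the third, on the minus strand, has its peak 24063 bp away. The run on chromosome 2 holds 3 more biotic stimulus genes, MELO3C015016.2, MELO3C015011.2 and MELO3C015007.2, within 191.4 kb, and its 4 peaks are all distal, between 6295 and 25468 bp from a start. These 2 runs hold 6 of the 10 genes annotated only to defense and biotic stimulus.

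**Figure D4:**
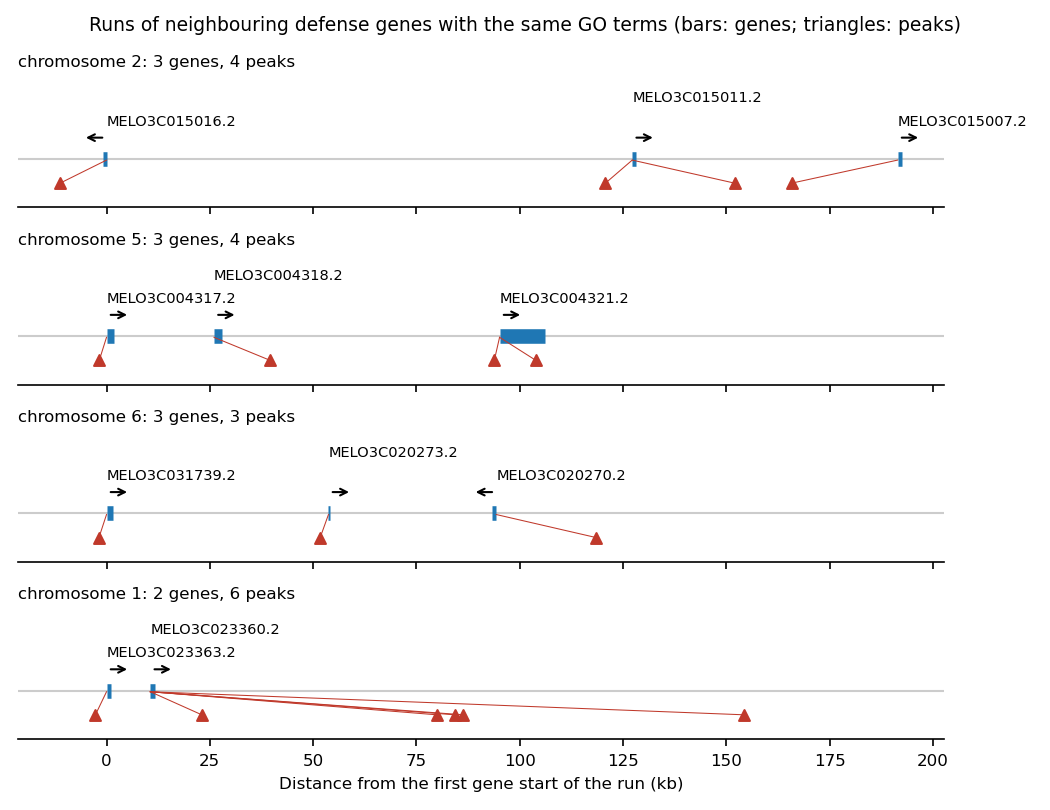
The 4 runs of neighbouring defense genes with identical GO terms, in kb from the first gene start of each run, with genes as blue bars, arrows for their direction, and peak centres as red triangles joined to the assigned gene start. Peaks stand close before 2 of the 3 genes on chromosomes 5 and 6, and on chromosome 2 they stand between genes or outside them.

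The pair on chromosome 1 was formed by the extracellular genes MELO3C023363.2 and MELO3C023360.2, with starts 10.6 kb apart near the chromosome end. The other 2 pairs joined genes of different annotation. On chromosome 11, MELO3C021923.2 and the methyl salicylate esterase gene MELO3C021922.2 started 14.8 kb apart, the first with a peak over its start and the second with a peak 847 bp inside. On chromosome 5, MELO3C031562.2 and MELO3C004409.2 started 73.7 kb apart. Listed genes between the members of a run numbered 0 in 5 of the 6 runs and 2 on chromosome 6, neither with a GO term.

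Defense genes were found on all 12 numbered chromosomes and on chr0, from 1 on chromosomes 3 and 10 to 8 on chromosome 1 and 6 on chromosome 5. As a share of the GO-annotated genes of a chromosome they ranged from 0.391% on chromosome 3 to 2.46% on chromosome 1. The outer 10% at either end of the 12 numbered chromosomes held 19 of 48 defense genes, or 39.6% (25.8 to 54.7), against 30.6% of GO-annotated genes, which lies within that interval. The count includes the 5 genes in the runs on chromosome 5, with starts between 93.1 and 96.4% of the span.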

How the data were processed

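The authors deposited 1 combined peak list with coordinates, widths and signed distances to the assigned gene start in bp, location class and GO names, per the file headers. MACS2, a peak caller, and deepTools are named in the submitters' processing notes. The sources used here do not state versions, thresholds, aligner, genome build, gene annotation or how the libraries were combined. A looser threshold would list more weak sites. The labels' protocols also describe a PCR-amplified library, without saying which samples used it.

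The members and lists were chosen with earlier results of these data known, so no test of the list was run. A gene counts as having an upstream peak if a peak centre lies within 2 kb before its start, and as a neighbour if gene starts lie at most 200 kb apart. Named genes were those with upstream peaks, in runs of 3, with 2 or more peaks, with the 3 widest peaks or the extreme distances. All other members were added after their values were seen. Group names by first matching GO term were also set then. Members were chosen by their words anywhere in a GO name. For the groups, the lists and the ADP binding and kinase genes, terms were matched from the start of a word. By this rule NADP binding is not ADP binding. The counting was tested on simulated data. No sequence was used here. Python 3.11.15, numpy 2.4.6, pandas 2.3.3, scipy 1.17.1 and matplotlib 3.10.9 were used.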

Additional observations from a re-analysis of the deposited data

How the results depend on the processing

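The share of defense genes with an upstream peak, 22.4% at 2 kb, was 10.2% (5 of 49) with a window of 1 kb, where the share of all GO-annotated genes was 9.72%. It was 22.2 to 28.6% with 3 kb, any overlap of at least 1 bp, peaks of at least median width, the "defense response" names alone, hormone genes kept or chr0 left out. The distal share was 50.0 to 57.4% for wide peaks, "defense response" names alone, hormone genes kept or chr0 left out, and 43.4% without the 2 genes that have 5 and 8 peaks, an alternative chosen after seeing the data. The share of defense genes with a defense neighbour was 28.6% at 100 kb and 30.6% at 500 kb, against 2.29% and 11.8% of other genes. Counting each run of identical GO names as 1 gene, also chosen after seeing the data, gave 9.52%, since that removes 7 of the genes by construction. No paired analysis was possible because the list has no column per library, and for the same reason no replicate could be left out. Depth is unknown, and the number of genes limits the precision.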

Other observations

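The 4 genes left out for a hormone term had peaks as follows. MELO3C012221.2, a transcription coactivator gene with a jasmonic acid term, had 2 peaks, the nearer 91 bp upstream. MELO3C015538.2 and MELO3C022678.2, corepressor genes of jasmonic acid signalling, had their nearest peaks 1702 bp upstream and 2195 bp past the start, beyond the gene's end. MELO3C020407.2, a nuclear pore gene with an auxin term, had an exonic peak 23313 bp past the start. None of the 4 started within 200 kb of a member.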
